A study of Mus musculus with 23 samples.

Results

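The genes described here are 38 transcription factors that specify tissues outside the nervous system, namely 6 GATA factors, 13 T-box factors, 7 Pax factors, the 4 myogenic factors of the MyoD family and 8 homeobox or HAND factors of heart, gut and hindlimb. They were chosen by name, as lineage factors of mesoderm and endoderm, and not by a cutoff on measured values. Earlier results of these data were known when they were chosen. All 38 were found among the 21938 protein-coding genes of chromosomes 1 to 19, X and Y in GENCODE M21.

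H3K27ac and H3K27me3 were mapped by ChIP-seq in cells of the cerebral cortex of Tg(Ebf2-EGFP)FB58Gsat mouse embryos, a line in which regulatory sequence of Ebf2 drives EGFP. EGFP+ cells were sorted at E11.5, at E13.5 and finally at E15.5. EGFP- cells were profiled at E11.5, so those of the later stages do not enter. By the study's account the EGFP+ cells are mainly preplate neurons at E11.5 and mostly Cajal-Retzius neurons at E15.5, and the E11.5 EGFP- cells are mostly progenitors. Each of the 8 combinations of mark and cell group has 1 peak list, from 2 ChIP libraries or, for H3K27ac in E11.5 EGFP- cells, from 1, with 2 input libraries per cell group. All cells carry the same transgene, and a sorted fraction is defined by that reporter alone. Because there was 1 list per group and every deposited peak score was 0, there was no replicate error and no peak height. Differences between lists are therefore described without a test, and depth is unknown.

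GATA factors bind the GATA motif and direct blood, heart and endoderm formation. T-box factors pattern the mesoderm, heart, limbs and pharynx. MyoD-family proteins commit cells to skeletal muscle, and Pax factors shape the sclerotome, kidney, thyroid, B cells and muscle progenitors. Genes of this kind are textbook targets of Polycomb repressive complexes, which deposit H3K27me3 over CpG-rich sequence and keep the genes silent in cells of other lineages. H3K27ac occupies the same lysine at active promoters and enhancers, so a single histone tail cannot carry both. A window with peaks of both marks in a cell population can stem from different cells, alleles or nucleosomes. Some members also act in the developing nervous system or the neural crest. Here 11 were counted as such, which were Gata2, Gata3, Tbx2, Tbx3, Tbx20, Hand2, Pax2, Pax3, Pax5, Pax7 and Pax8.

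A transcription start site (TSS, the 5′ end of the gene) was called marked when a peak lay within 5 kb of it. The lists differed in length from 1386 to 102881 peaks for H3K27ac and from 1438 to 48963 for H3K27me3, and a longer list reaches more genes of every kind. Each share of members is therefore set beside the share of all protein-coding genes that the same list marked. Because the lists favoured CpG-rich starts to different degrees, the share is also given for the 8406 genes whose 1 kb around the TSS had a GC content of at least 55% and a CpG ratio (observed over expected) of at least 0.6. Members met this criterion about as often as other genes, 14 of 38 (36.8%) against 38.3% of all. Wilson 95% intervals cover counting over genes only.

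The sorted cells were checked against marker genes of the neural and non-neural cell types of the region. All 5 Cajal-Retzius and preplate markers (Reln, Trp73, Ebf2, Lhx5 and Tbr1) had H3K27ac in EGFP+ cells at E11.5 and E13.5, and 4 of 5, all but Ebf2, at E15.5. General neuronal markers had it at 4, 3 and 4 of 5 in the EGFP+ lists by stage, and progenitor markers at 4, 5 and 3 of 5, so the check does not separate neurons from progenitors. In the H3K27ac list of E11.5 EGFP- cells, 0 of 5 progenitor markers (Sox2, Pax6, Hes5, Nes and Vim) had a peak, although these cells are described as progenitors. The same list marked 2 of 5 Cajal-Retzius and preplate markers (Reln and Tbr1) and 0 of 5 general neuronal markers, so the check does not bear out that description. For a member, a silent start and the shortness of that list cannot be told apart.

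Short stretches of marked sequence show what these peaks cover. The following 8 stretches, read from the reference genome on the strand of each gene and chosen for illustration after the states were known, each lay in a peak that carries a state described below. CpG dinucleotides are in capitals.
Myf5: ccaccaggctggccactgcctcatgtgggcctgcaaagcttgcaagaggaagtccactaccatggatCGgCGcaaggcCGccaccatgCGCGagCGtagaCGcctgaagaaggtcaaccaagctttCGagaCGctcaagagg
Gata5: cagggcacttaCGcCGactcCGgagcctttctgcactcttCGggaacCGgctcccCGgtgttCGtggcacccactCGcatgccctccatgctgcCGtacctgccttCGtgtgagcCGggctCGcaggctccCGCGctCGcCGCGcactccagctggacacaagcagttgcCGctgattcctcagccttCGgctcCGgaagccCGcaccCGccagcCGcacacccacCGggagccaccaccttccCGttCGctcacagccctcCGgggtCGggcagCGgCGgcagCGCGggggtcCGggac
Tbx2: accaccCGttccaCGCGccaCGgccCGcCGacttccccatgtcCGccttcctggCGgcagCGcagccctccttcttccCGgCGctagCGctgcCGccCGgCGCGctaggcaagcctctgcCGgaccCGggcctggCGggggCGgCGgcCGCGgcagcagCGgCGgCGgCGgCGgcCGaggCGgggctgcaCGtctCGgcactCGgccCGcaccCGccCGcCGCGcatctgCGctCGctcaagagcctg
Tbx21: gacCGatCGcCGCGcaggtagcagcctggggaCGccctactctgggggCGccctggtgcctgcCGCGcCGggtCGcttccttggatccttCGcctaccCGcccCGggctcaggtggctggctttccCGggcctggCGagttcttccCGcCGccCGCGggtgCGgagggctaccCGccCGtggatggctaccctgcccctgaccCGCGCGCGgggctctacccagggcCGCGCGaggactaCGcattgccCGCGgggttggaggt
Pax5: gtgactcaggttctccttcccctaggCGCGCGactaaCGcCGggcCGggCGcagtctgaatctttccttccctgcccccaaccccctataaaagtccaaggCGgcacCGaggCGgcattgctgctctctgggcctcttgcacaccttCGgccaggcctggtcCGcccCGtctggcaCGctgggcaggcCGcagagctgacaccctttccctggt
Hand2: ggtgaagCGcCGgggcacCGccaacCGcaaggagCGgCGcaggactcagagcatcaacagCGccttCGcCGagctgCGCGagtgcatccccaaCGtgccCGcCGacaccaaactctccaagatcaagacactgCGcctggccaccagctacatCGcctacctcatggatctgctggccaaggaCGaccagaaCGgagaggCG
Pax3: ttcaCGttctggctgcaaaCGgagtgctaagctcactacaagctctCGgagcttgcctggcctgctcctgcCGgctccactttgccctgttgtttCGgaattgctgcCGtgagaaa
Myod1: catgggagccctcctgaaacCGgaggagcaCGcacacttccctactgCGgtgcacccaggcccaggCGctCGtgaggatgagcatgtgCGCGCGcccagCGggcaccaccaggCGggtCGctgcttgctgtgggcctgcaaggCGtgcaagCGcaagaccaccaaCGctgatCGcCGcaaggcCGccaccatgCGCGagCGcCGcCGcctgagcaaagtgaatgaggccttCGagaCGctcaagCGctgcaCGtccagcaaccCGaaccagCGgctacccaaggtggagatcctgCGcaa
The Myf5 stretch (mm10 chr10:107485608-107485749, minus strand) was the whole H3K27me3 peak of E11.5 EGFP- cells, in coding sequence, and 136 of its 142 bases also lay in an H3K27ac peak of E11.5 EGFP+ cells. The Gata5 stretch (chr2:180334034-180334333, minus strand), also coding, was the middle of a 338 bp H3K27me3 peak of EGFP- cells and shared 257 of 300 bases with H3K27ac of E11.5 EGFP+ cells. The Tbx2 stretch (chr11:85833144-85833391, plus strand), again coding, was an H3K27ac peak of E11.5 EGFP+ cells in which the whole 176 bp H3K27me3 peak of EGFP- cells was nested. In these 3 genes the marks of the E11.5 fractions met on the same bases.

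The Tbx21 stretch (chr11:97114743-97115006, minus strand), in coding sequence, and the Pax5 stretch (chr4:44710875-44711088, minus strand), upstream of the gene, were E13.5 H3K27me3 peaks. An E13.5 H3K27ac peak covered 254 of 264 bases of the former and 212 of 214 of the latter. The Hand2 stretch (chr8:57322197-57322398, plus strand), coding, was an H3K27ac peak at E11.5 and lay wholly within an H3K27me3 peak at E13.5. The Pax3 stretch (chr1:78196373-78196488, minus strand), intronic, carried H3K27me3 in E11.5 EGFP+ cells. The Myod1 stretch (chr7:46376828-46377127, plus strand), coding, was the middle of a 301 bp H3K27ac peak at E15.5. CpG density differed widely among the stretches, from 40 CpGs in the 248 bases of Tbx2 to 6 in the 116 bases of Pax3. The longest run of bases shared by any pair was 26, between the paralogues Myf5 and Myod1.

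In E11.5 EGFP- cells, 30 of 38 members had H3K27me3 in the 5 kb window (78.9%, 95% interval 63.7 to 88.9), against 48.2% of all protein-coding genes. H3K27ac lay near 0 of 38 (interval up to 9.18%), against 4.17% of all genes. The 30 members were therefore in the state of H3K27me3 only, which held 44.7% of all genes. Neither mark was found at 8 members (21.1%), against 51.1% of all genes. Both marks occurred together at 0 members and at 3.42% of all genes. The H3K27ac list behind these shares had 1386 peaks, and the states of EGFP- cells hold for the deposited list alone. All 4 myogenic genes had H3K27me3, as did 7 of 8 heart, gut and limb factors, 10 of 13 T-box factors, 5 of 7 Pax factors and 4 of 6 GATA factors.

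The H3K27me3 list of EGFP- cells was not particular to lineage factors. It marked 72.9% of the genes with a CpG-rich start, 16 of 20 forebrain factors (80.0%) and 10 of 12 genes for Polycomb proteins and other H3K27 enzymes (83.3%), which are in general use. It also marked 3 of 5 progenitor markers (Sox2, Nes and Vim), 4 of 5 Cajal-Retzius and preplate markers and 3 of 5 general neuronal markers. Of 32 markers of non-neural cells it marked 10 (31.2%), against 48.2% of all genes. Among members the CpG content of the start made little difference, with 12 of 14 CpG-rich and 18 of 24 other members marked. Among all genes the corresponding shares were 72.9% and 32.8%. The distance from the background was thus larger for the members without a CpG-rich start.

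The widest coverage by H3K27me3 in EGFP- cells fell on Tbx1 (pharyngeal arches), Gata6 (heart and endoderm), Cdx1 (posterior body and intestine), Tbx4 (hindlimb and lung) and Gata5 (heart and endoderm). Tbx1 had 920 bp under 3 peaks, Gata6 896 bp under a single peak in an exon centred 2680 bp into the gene, and Cdx1 872 bp under 3 peaks. Tbx4 had 835 bp under 3 peaks and Gata5 738 bp under 2. The peaks were otherwise narrow. The median of the widest peak was 208 bp over the 30 members and 247 bp over all marked genes, and 11 members (36.7%) had a peak of at least 300 bp against 34.8% of all marked genes. The list thus showed scattered short peaks at these genes rather than broad domains. Of the 55 member peaks, 17 (30.9%) were centred in a coding exon.

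**Figure D1:**
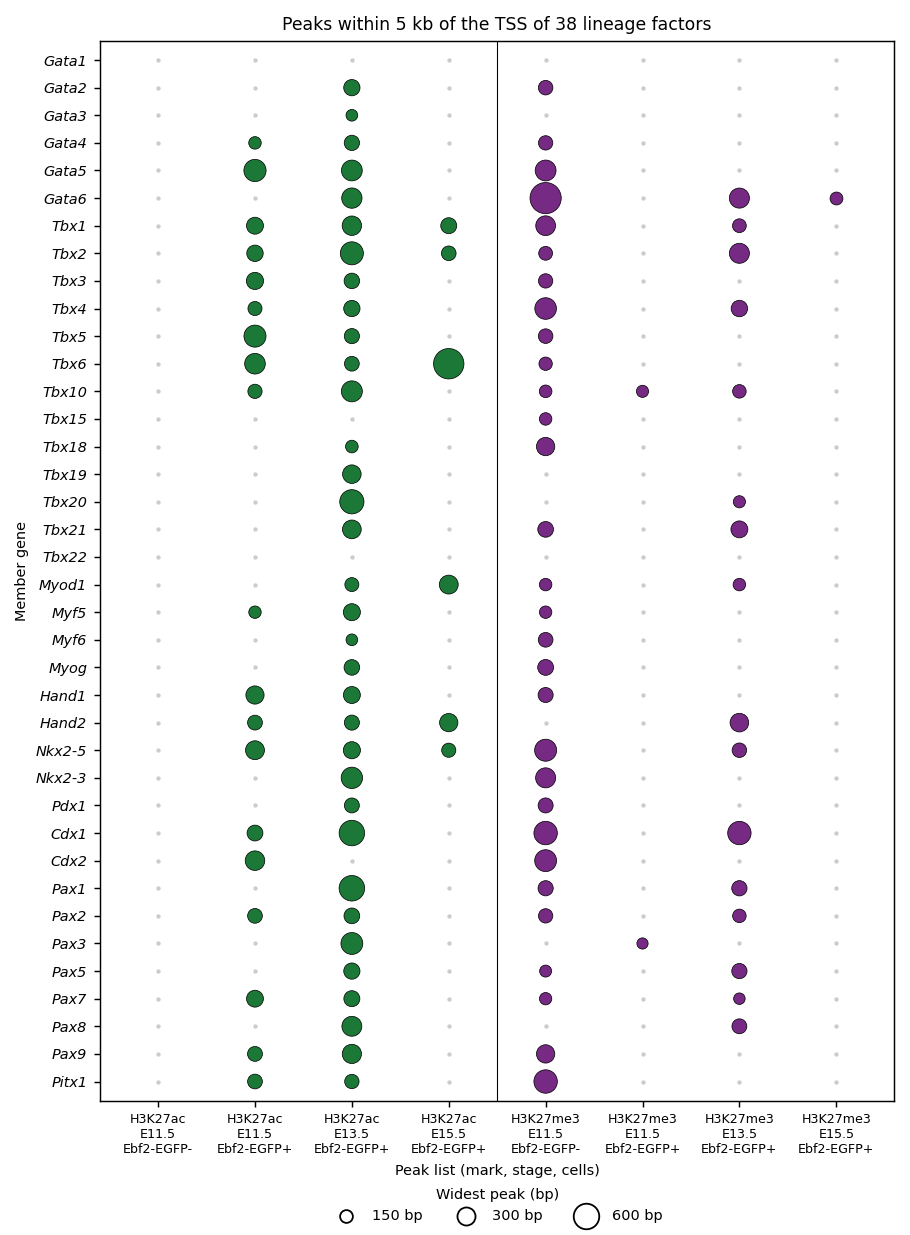
Peaks within 5 kb of the TSS of the 38 members (rows) in the 8 peak lists (columns, green for H3K27ac and purple for H3K27me3), with circle area proportional to the width of the widest peak in bp and small grey dots for no peak. The H3K27ac column of E11.5 EGFP- cells is empty, the E13.5 H3K27ac column holds 34 members, and Gata1 and Tbx22 have no circle.

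The 8 members without H3K27me3 in EGFP- cells were Gata1, Gata3, Tbx19, Tbx20, Tbx22, Hand2, Pax3 and Pax8. Of these, 5 (Gata3, Tbx20, Hand2, Pax3 and Pax8) belonged to the 11 members that also act in the nervous system, so that 6 of these 11 and 24 of the other 27 (88.9%) were marked. Gata1, the master regulator of red blood cell formation, and Tbx22, a palate gene, both lie on the X chromosome and had no peak in any of the 8 lists. Gata3, which directs T cell development, had a single 126 bp H3K27ac peak at E13.5, centred 4020 bp into the gene and nearer the start of 9230102O04Rik. Tbx19, the activator of Pomc in pituitary corticotrophs, had a 316 bp H3K27ac peak at E13.5 centred 278 bp into the gene. These 4 genes had H3K27me3 in 0 of the 4 lists of that mark.

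The other 4 of the 8 acquired H3K27me3 in a list of EGFP+ cells. Tbx20, a cardiac factor also used in hindbrain motor neurons, had a 540 bp H3K27ac peak across its TSS at E13.5 and a 136 bp H3K27me3 peak 4838 bp upstream at the same stage. Pax8, a thyroid and kidney factor, had a 365 bp H3K27ac peak and a 204 bp H3K27me3 peak at E13.5, centred 547 and 461 bp into the gene. Pax3, a factor of muscle progenitors, neural crest and the dorsal neural tube, had 116 bp of H3K27me3 at E11.5 and then a 440 bp H3K27ac peak at E13.5. Hand2, a factor of heart, limb and sympathetic neurons, had H3K27ac at all EGFP+ stages and a 320 bp H3K27me3 peak at E13.5. For Tbx20, Hand2 and Pax8 the H3K27me3 peak was found at E13.5 and in no E11.5 list.

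In E11.5 EGFP+ cells, 19 of 38 members (50.0%, interval 34.8 to 65.2) had H3K27ac, close to the share of all genes (49.9%). H3K27me3 was near 2 members (5.26%), Pax3 and Tbx10, against 4.92% of all genes. A single member, Tbx10, had both marks (all genes 3.56%). Its 136 bp H3K27me3 peak was centred in a coding exon 3934 bp into the gene and 3894 bp from the start of Nudt8. The state of H3K27ac only held 18 members (47.4%), against 46.4% of all genes. They were Gata4, Gata5, Tbx1 to Tbx6, Myf5, Hand1, Hand2, Nkx2-5, Cdx1, Cdx2, Pax2, Pax7, Pax9 and Pitx1. Heart, gut and limb factors were the group with the highest share (6 of 8), and GATA and myogenic factors had the lowest (2 of 6 and 1 of 4).

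Beside genes with comparable starts the members stood on neither side. Among the genes with a CpG-rich start 81.4% had H3K27ac in E11.5 EGFP+ cells, against 10 of 14 such members (71.4%), while 9 of 24 other members had it against 30.4% of the other genes. Of the 30 members with H3K27me3 in EGFP- cells, 18 (60.0%) had H3K27ac in EGFP+ cells of the same age, against 72.3% of all 10565 genes with that H3K27me3. The members' H3K27ac peaks were also narrower and farther from the TSS. The median of the widest peak was 248 bp, from 142 bp for Myf5 to 454 bp for Gata5, against 342 bp over all marked genes, and 6 of the 19 members (31.6%) had a peak of at least 300 bp against 57.8%. The nearest peak centre lay at a median of 644 bp from the TSS, against 295 bp. With a window of 1 kb the share of members was 31.6%, below the 40.6% of all genes.

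At 12 members an H3K27me3 peak of EGFP- cells and an H3K27ac peak of EGFP+ cells overlapped at E11.5. They were Gata5, Tbx1, Tbx2, Tbx3, Tbx4, Tbx6, Tbx10, Myf5, Nkx2-5, Cdx1, Pax9 and Pitx1. Counted over peaks, 14 of the 31 member peaks of the H3K27ac list (45.2%) overlapped that H3K27me3 list, against 42.4% of all H3K27ac peaks near a TSS. Counted the other way, 13 of the 55 member peaks of H3K27me3 (23.6%) overlapped that H3K27ac list, against 43.0% of all H3K27me3 peaks near a TSS. The members thus matched all genes from the H3K27ac side and fell below them from the H3K27me3 side. At Cdx2, which specifies trophectoderm and the hindgut, the marks lay apart, with a 440 bp H3K27me3 peak centred 300 bp into the gene and a 351 bp H3K27ac peak at 2175 bp.

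**Figure D2:**
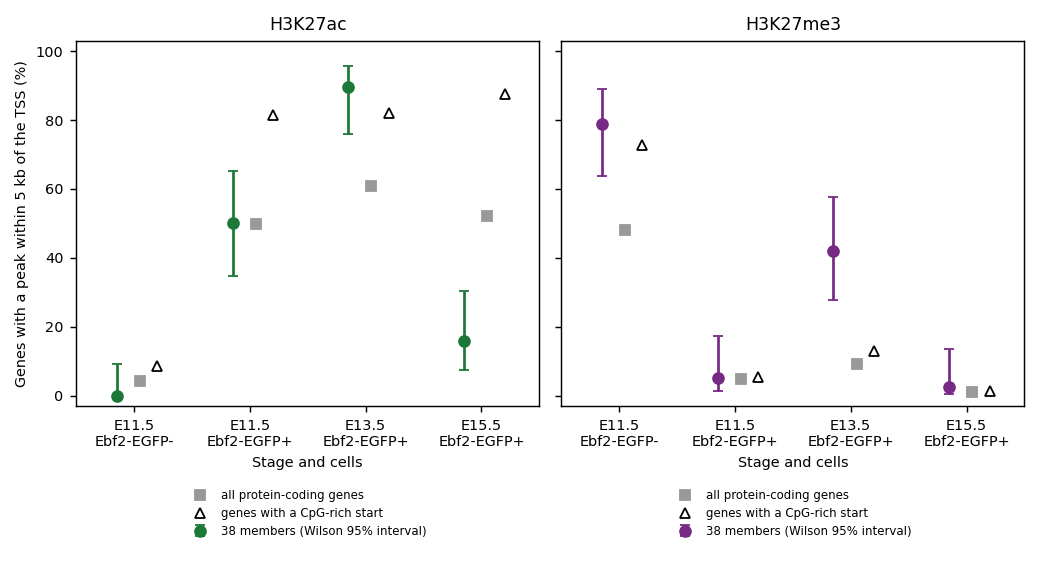
Share of genes (%) with a peak within 5 kb of the TSS by stage and cells, for H3K27ac (left) and H3K27me3 (right), for the 38 members with Wilson 95% intervals, for all protein-coding genes and for genes with a CpG-rich start. Members lie above all genes for H3K27ac at E13.5 (89.5% against 60.9%) and H3K27me3 at E13.5 (42.1% against 9.31%), and below them for H3K27ac at E15.5 (15.8% against 52.3%).

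At E13.5, 34 of 38 members (89.5%, interval 75.9 to 95.8) had H3K27ac, against 60.9% of all genes, and 16 (42.1%, interval 27.9 to 57.8) had H3K27me3, against 9.31%. H3K27ac was near 13 of 14 members with a CpG-rich start (92.9%), against 82.0% of all such genes. Of the other members 21 of 24 had it, against 47.8% of the other genes, so the distance from the background was larger there. Every member with H3K27me3 also had H3K27ac, so that 16 members had both marks, 18 had H3K27ac only and 4 (Gata1, Tbx15, Tbx22 and Cdx2) had neither. Both marks were found at 8.39% of all genes, H3K27ac only at 52.5% and neither mark at 38.1%. Among all genes with H3K27me3 at E13.5, 90.1% also had H3K27ac. All 7 Pax genes and all 4 myogenic genes had H3K27ac at this stage, as did 11 of 13 T-box factors, 7 of 8 heart, gut and limb factors and 5 of 6 GATA factors. For 15 of the 35 members with H3K27ac at any EGFP+ stage (42.9%), E13.5 was the only stage, against 16.5% of all such genes.

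The E13.5 H3K27ac list was the longest of the 8, and lists of other developmental regulators were marked as widely. It held 38 of 39 Hox genes, 31 of 36 other factors of mesoderm and endoderm and 19 of 20 forebrain factors. The list also marked 18 of 32 markers of non-neural cells (56.2%), below its share of all genes but above the 28.1% and 25% that the E11.5 and E15.5 EGFP+ lists marked. H3K27ac was near 4 of 6 endothelial and pericyte markers, 3 of 6 mesenchymal markers, 3 of 5 leukocyte markers, 3 of 5 muscle markers, 3 of 5 erythroid markers and 2 of 5 gut markers at E13.5. In E11.5 EGFP+ cells the same groups had 1, 1, 1, 1, 2 and 3 marked genes, and at E15.5 they had 0, 1, 2, 1, 3 and 1. Only the gut markers were thus more frequent before E13.5, and the erythroid markers were as frequent after it. Of the 32 markers, 10 had no H3K27ac peak in any list, Pecam1, Col3a1, Ptprc and Actc1 among them, while Cdh5, Col1a1, Csf1r and Tnnt2 had it at E13.5. The part of such cells in the members' marking was not tested. With each H3K27ac list cut to its widest peaks, as many as the E15.5 list holds, a setting chosen after the data were seen, 17 members (44.7%) were marked at E13.5 against 31.1% of all genes.

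The 16 members with both marks were Gata6, Tbx1, Tbx2, Tbx4, Tbx10, Tbx20, Tbx21, Myod1, Hand2, Nkx2-5, Cdx1, Pax1, Pax2, Pax5, Pax7 and Pax8. At 13 of them, all but Tbx20, Hand2 and Pax7, peaks of both marks overlapped. Of the 19 member peaks in the E13.5 H3K27me3 list, 13 (68.4%) overlapped an H3K27ac peak of the stage, against 53.4% of all H3K27me3 peaks near a TSS. From the other side, 13 of 79 member H3K27ac peaks (16.5%) overlapped H3K27me3, against 4.96%. The widest overlap was at Cdx1, where H3K27me3 covered 503 bp centred 231 bp into the gene and H3K27ac 597 bp centred at 213 bp. At Tbx21 (T-bet, the Th1 factor) the centres were at 457 and 496 bp, and at Pax5 (B cells and midbrain) they were 494 and 510 bp upstream.

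The H3K27me3 peaks of members at E13.5 were wider than usual for that list. The median of the widest peak was 209 bp, from 122 bp at Pax7 to 503 bp at Cdx1, against 158 bp over all marked genes. Other developmental regulators shared this, with medians of 230 bp for other factors of mesoderm and endoderm, 185 bp for Hox genes and 182 bp for forebrain factors. Peaks of at least 300 bp were found at 4 of 16 members (25.0%), namely Cdx1, Gata6 (371 bp), Tbx2 (368 bp) and Hand2 (320 bp), against 6.66% of all marked genes. H3K27ac widths at E13.5 did not set the members apart, with a median of 255 bp for both sets. Of the 19 H3K27me3 peaks, 7 (36.8%) overlapped an H3K27me3 peak of E11.5 EGFP- cells, close to the 35.0% over all H3K27me3 peaks near a TSS. Of the 30 members with H3K27me3 in EGFP- cells, 13 (43.3%) had it in E13.5 EGFP+ cells, against 14.4% of all such genes.

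Marking by H3K27me3 at E13.5 was shared with other developmental regulators. It was near 24 of 39 Hox genes (61.5%), 13 of 36 other factors of mesoderm and endoderm (36.1%) and 8 of 20 forebrain factors (40.0%), but 2 of 12 genes for Polycomb proteins and H3K27 enzymes (16.7%). Among genes with a CpG-rich start 13.1% had it, against 7 of 14 such members, and 9 of 24 other members had it against 6.97% of the other genes. Among the families, Pax genes had the largest share (5 of 7), followed by T-box factors (6 of 13), heart, gut and limb factors (3 of 8), myogenic factors (1 of 4) and GATA factors (1 of 6). The 11 members that also act in the nervous system had it in 7 cases, and the 27 others in 9 (33.3%).

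**Figure D3:**
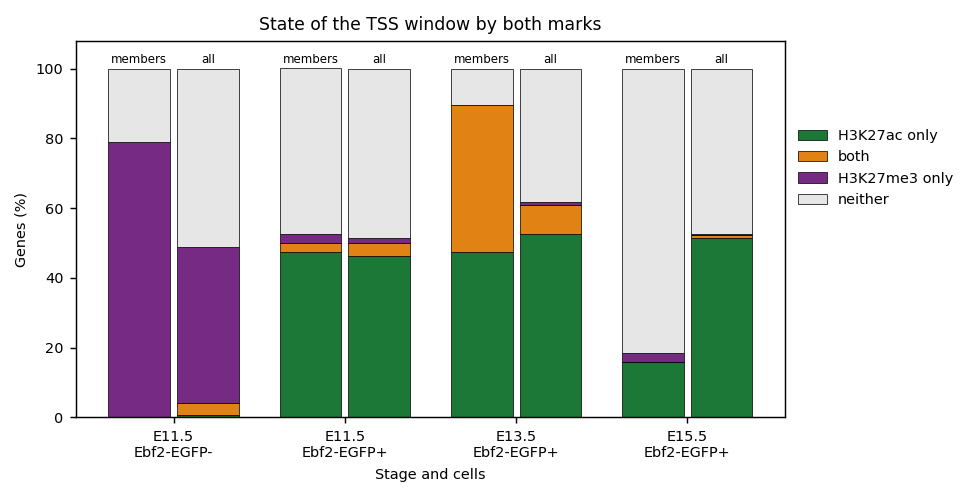
State of the TSS window by both marks (% of genes) in the 4 cell groups, with the 38 members in the left bar and all protein-coding genes in the right bar of each pair. Members are in H3K27me3 only (78.9%) or neither in E11.5 EGFP- cells, split between H3K27ac only and both at E13.5, and mostly in neither (81.6%) at E15.5.

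At E15.5, H3K27ac was near 6 of 38 members (15.8%, interval 7.44 to 30.4), against 52.3% of all genes and 87.5% of the genes with a CpG-rich start. Of the CpG-rich members 2 of 14 had it, and of the others 4 of 24, against 30.4% of the other genes. H3K27me3 was near a single member, Gata6 (2.63%), against 1.06% of all genes, and both marks were at 0 members and 0.752% of all genes. Neither mark was found at 31 members (81.6%), against 47.4% of all genes. Of the 19 members with H3K27ac at E11.5, 5 (26.3%) had it at E15.5, against 80.2% of all such genes, and of the 34 with H3K27ac at E13.5, 6 (17.6%) had it against 67.7%.

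The E15.5 list separated these genes from forebrain factors more than any other H3K27ac list did. It marked 18 of 20 forebrain factors (90.0%), 13 of 39 Hox genes (33.3%) and 15 of 36 other factors of mesoderm and endoderm (41.7%). Within the same gene families, Tbr1, a T-box factor of early cortical neurons, had in EGFP+ cells a widest H3K27ac peak of 907 bp at E11.5, then 755 bp and by E15.5 1131 bp. Eomes, the T-box factor of intermediate progenitors, had 552, 378 and 207 bp. The other 4 family genes outside the list were less often marked: T (mesoderm) was acetylated until E13.5, Mga from E13.5 on, Pax6 (forebrain progenitors) at E13.5 alone and Pax4 (pancreas) at no stage. No member reached the width of Tbr1 in any of the 3 lists.

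The 6 members with H3K27ac at E15.5 were Tbx1, Tbx2, Tbx6, Myod1, Hand2 and Nkx2-5, and most of their peaks lay far from the TSS. Tbx1, Tbx2 and Nkx2-5 had single peaks of 235, 198 and 184 bp centred 2920, 3615 and 4750 bp upstream. Hand2 had a 308 bp peak 2797 bp into the gene. The 850 bp peak counted for Tbx6, a factor of presomitic mesoderm, lay 4555 bp upstream and was centred 27 bp from the start of Ypel3, and the other 3 Tbx6 peaks also lay nearest Ypel3. Myod1 alone had peaks close to its start, of 301 and 329 bp centred 504 and 1020 bp into the gene, and with a window of 1 kb it was the only member left (2.63%), against 46.0% of all genes. The median distance of the nearest peak centre was 3268 bp for the 6 members and 267 bp for all marked genes, and the median widest peak 272 against 582 bp. Of the 7 member peaks, a single peak, that of Tbx6, overlapped EGFP+ H3K27ac of an earlier stage, at E11.5 and at E13.5 (14.3% each). Over all E15.5 H3K27ac peaks near a TSS the shares were 58.2% and 53.1%.

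**Figure D4:**
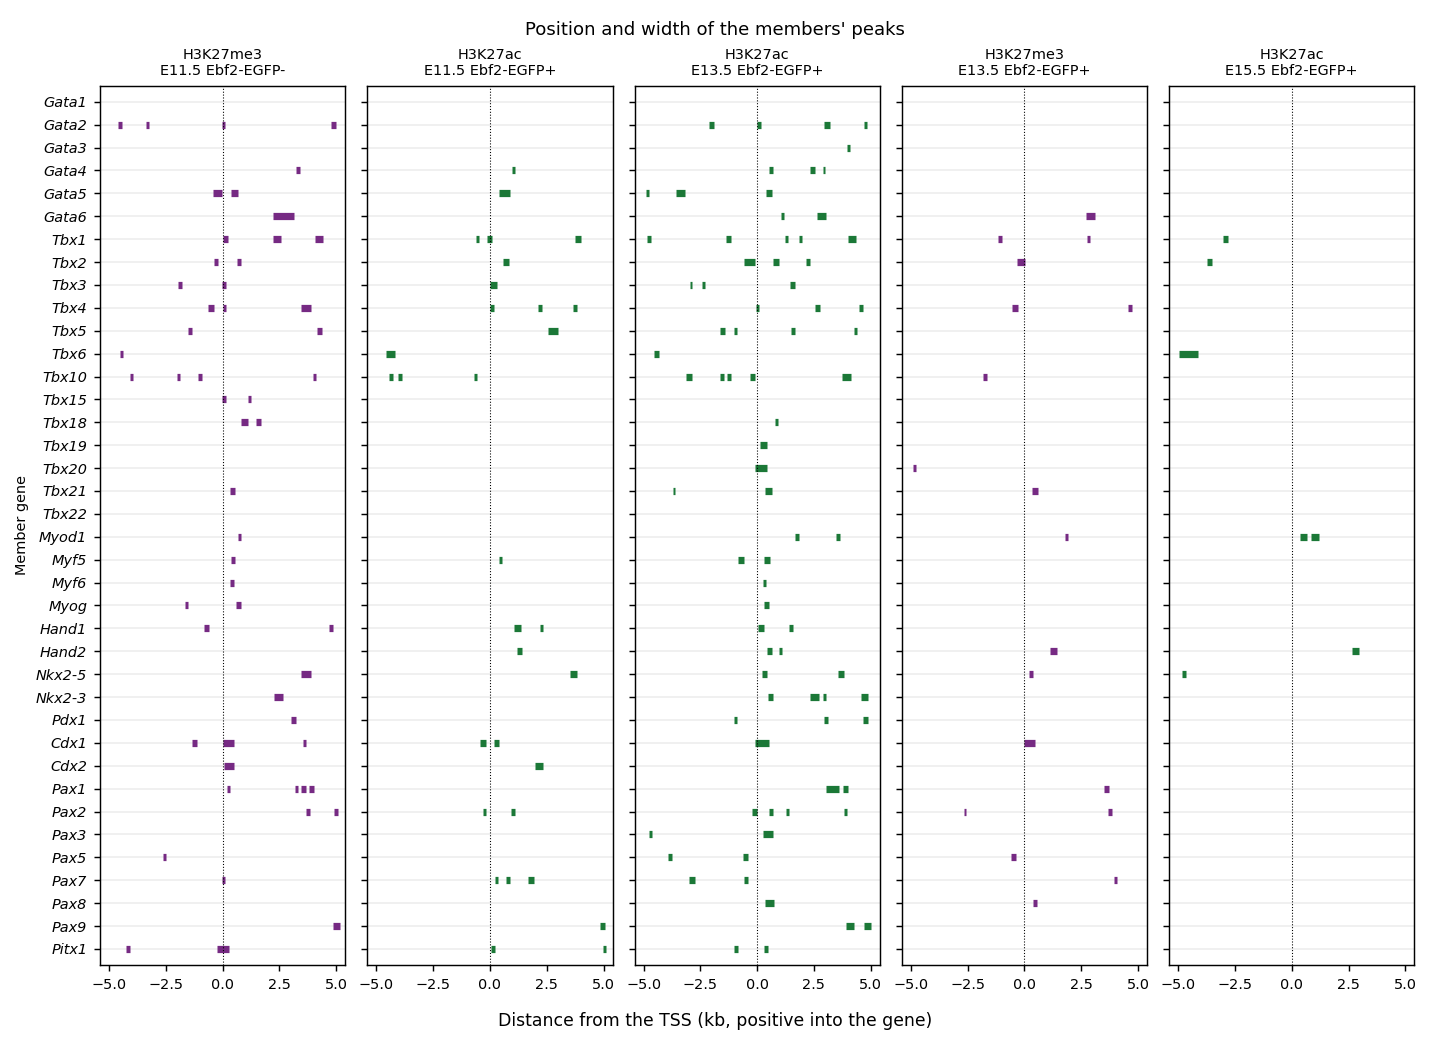
Position of each member's peaks relative to the TSS (kb, positive into the gene) in 5 of the 8 lists, with the bar length giving the peak width (purple H3K27me3, green H3K27ac). The 7 E15.5 H3K27ac peaks lie away from the TSS except at Myod1, whereas 79 peaks crowd the E13.5 H3K27ac panel.

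Gata6 and Tbx10 had H3K27me3 in 3 lists, and no member had it in 4. The H3K27me3 peaks of Gata6, of 896 bp (E11.5 EGFP- cells), 371 bp (E13.5 EGFP+) and 153 bp (E15.5 EGFP+), were nested around 2680 to 2904 bp into the gene, in a coding exon. A 380 bp H3K27ac peak of E13.5 EGFP+ cells lay over the same place. The GC content of the peak of E15.5 was 76.5%, against a median of 64.1% over the 55 member peaks of H3K27me3 in EGFP- cells. At E11.5, Gata6 had no peak of either mark within 5 kb in EGFP+ cells. Tbx10 had 4 H3K27me3 peaks of 130 to 147 bp in EGFP- cells, 136 bp in E11.5 EGFP+ cells and 169 bp centred 1726 bp upstream at E13.5. Of these 6 peaks, 3 lay nearer the start of Acy3 or Nudt8. The site slightly nearer the start of Nudt8, which lay inside Tbx10, was in both E11.5 lists. The E13.5 peak overlapped no H3K27me3 peak of E11.5.

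Read across the 4 cell groups, the most frequent course was H3K27me3 only in E11.5 EGFP- cells, H3K27ac only in EGFP+ cells at E11.5 and E13.5, and neither mark at E15.5. It was followed by 8 members (21.1%, all genes 3.07%), which were Gata4, Gata5, Tbx3, Tbx5, Myf5, Hand1, Pax9 and Pitx1. These are factors of heart and endoderm (Gata4, Gata5), forelimb and heart (Tbx5), heart conduction tissue and limb (Tbx3), muscle determination (Myf5), heart and placenta (Hand1), pharyngeal pouch and teeth (Pax9) and hindlimb (Pitx1). A further 6 members (15.8%, all genes 3.96%) had H3K27ac at E13.5 alone after H3K27me3 in EGFP- cells. They were Gata2 (blood stem cells), Tbx18 (epicardium), Myf6 and Myog (muscle differentiation), Nkx2-3 (spleen and gut) and Pdx1 (pancreas). Tbx4, Cdx1, Pax2 and Pax7 had both marks at E13.5 after H3K27ac only at E11.5 (10.5%, all genes 0.939%). The courses were read from lists of unequal length, and the part of length in them was not tested. Over all genes the EGFP+ H3K27ac lists marked 49.9%, 60.9% and 52.3% by stage, against 50.0%, 89.5% and 15.8% of members.

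Within the leading course the marks lay at varied places. Pitx1 had a 506 bp H3K27me3 peak across its TSS in EGFP- cells and H3K27ac of 200 bp at E11.5 and 190 bp at E13.5, centred 134 and 375 bp into the gene. Tbx3 had 189 bp of H3K27me3 centred 49 bp into the gene and 272 bp of H3K27ac centred at 156 bp at E11.5. In these genes both marks sat at the start at E11.5, though each gene also had peaks farther off. The E13.5 H3K27ac peaks of Tbx3 were centred 1539 to 2912 bp from the TSS. Gata4 had 189 bp of H3K27me3 at 3322 bp and 144 bp of H3K27ac at 1023 bp, with 3 H3K27ac peaks at E13.5. Tbx5 had H3K27me3 peaks of 151 and 196 bp, a 448 bp H3K27ac peak at 2766 bp at E11.5 and 4 of 151 to 212 bp at E13.5. Hand1 had H3K27me3 peaks of 209 and 138 bp, and H3K27ac peaks of 305 and 151 bp at E11.5 and of 265 and 204 bp at E13.5. In these 3 genes no H3K27me3 peak of EGFP- cells overlapped H3K27ac of E11.5 EGFP+ cells. Pax9 was marked at the edge of the window, by 309 bp of H3K27me3 centred at 5013 bp and 204 bp of H3K27ac at 4959 bp.

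Of the genes with H3K27ac at E13.5 alone, Gata2 had 4 peaks of each mark, of 130 to 195 bp for H3K27me3 in EGFP- cells and 126 to 244 bp for H3K27ac at E13.5. Nkx2-3 had a 369 bp H3K27me3 peak at 2456 bp and 4 H3K27ac peaks, the widest of 420 bp at 2528 bp. Pdx1 had 208 bp of H3K27me3 at 3127 bp and H3K27ac of 130, 167 and 206 bp. Tbx18 had H3K27me3 peaks of 229 and 310 bp and a 147 bp H3K27ac peak at 845 bp. At each of these 4 genes, and at Myf6, an H3K27ac peak overlapped an H3K27me3 peak of EGFP- cells, but at Myog none did. Such overlap was as common elsewhere. Over all members, 25 of 55 H3K27me3 peaks of EGFP- cells (45.5%) overlapped E13.5 H3K27ac, against 46.0% of all such peaks near a TSS.

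In all, 35 members had H3K27ac at some EGFP+ stage, as did 16330 of all 21938 genes. H3K27me3 was found at some EGFP+ stage at 17 members. For that mark, and for H3K27ac without it, the share of all genes was not computed. The 18 with H3K27ac and no H3K27me3 in EGFP+ cells were the 14 of these leading courses and Gata3, Tbx6, Tbx19 and Cdx2. Tbx15, a factor of skeletal development, had H3K27me3 in EGFP- cells, under peaks of 144 and 134 bp, and no other peak in any list. Tbx1, Tbx2, Tbx10 and Nkx2-5 were marked in 5 of the 8 lists, more than any other member.

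The 4 myogenic genes share a role, but only Myf6 and Myog shared a course. Myod1 and Myf5, which commit cells to muscle, and Myf6 and Myog, which act in differentiation, all had H3K27me3 in EGFP- cells, with widest peaks of 144, 142, 199 and 232 bp. H3K27ac at E11.5 was found at Myf5 alone (142 bp), and all 4 had it at E13.5 with widest peaks of 180, 268, 126 and 224 bp. Myf5 and Myf6 are neighbours with TSSs 8603 bp apart and overlapping windows, yet they shared 0 peaks. H3K27me3 at E13.5 and H3K27ac at E15.5 were both confined within the family to Myod1.

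**Figure D5:**
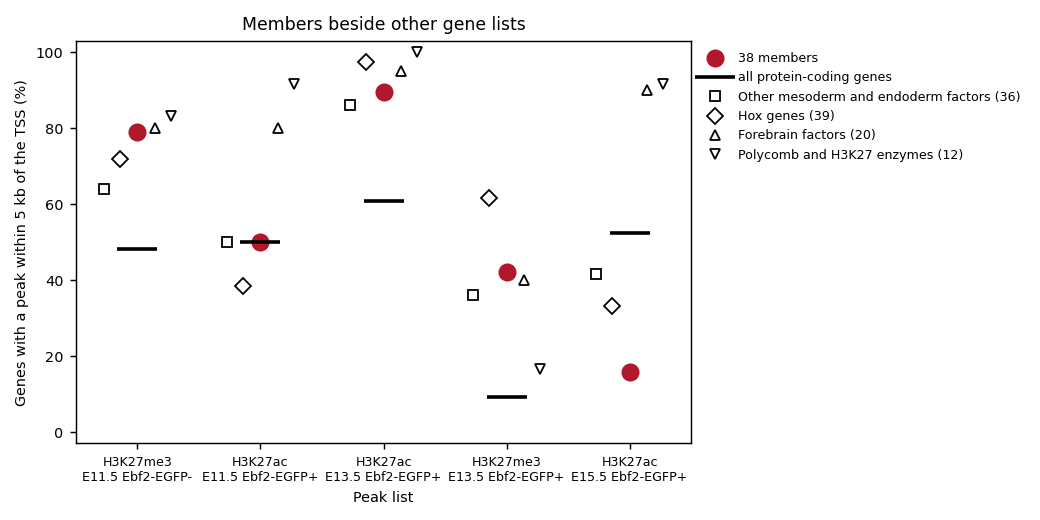
Share of genes (%) with a peak within 5 kb of the TSS in 5 peak lists for the 38 members, all protein-coding genes and 4 other gene lists, with the number of genes in parentheses. Members lie beside the forebrain factors for H3K27me3 in E11.5 EGFP- cells (78.9% and 80.0%) and E13.5 EGFP+ cells (42.1% and 40.0%), and far below them for H3K27ac at E15.5 (15.8% and 90.0%).

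Beyond the TSS windows, peaks from 5 to 100 kb were counted for each member. For H3K27ac, 34 members (89.5%) had such a peak in EGFP+ cells of E11.5, 37 (97.4%) in those of E13.5 and 34 (89.5%) in those of E15.5, against 85.7%, 96.8% and 80.1% of all genes. The median number was 14 at E13.5 for members and 10 for all genes. At E15.5 the members thus lacked H3K27ac near the TSS but not in the surrounding sequence, where the median was 3.5 peaks against 3.0. For H3K27me3, distal peaks were near 37 members (97.4%) in E11.5 EGFP- cells against 90.7% of all genes, and near 26 (68.4%) at E13.5 against 48.1%. Peaks this far from a TSS need not belong to that gene.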

How the data were processed

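ChIP-seq of H3K27ac (antibody Ab4729) and H3K27me3 (Ab6002) was aligned by the authors to mm10 with Bowtie 1.1.2 on Galaxy, with at most 3 mismatches per read. MACS then called peaks at p 1e-05. Its version, the pooling of replicates and the use of the inputs were not given in the sources used here. The authors deposited 8 lists of peak positions whose score was 0 for every peak, and no read counts, so depth is unknown. Starts were read as counted from 0 and are printed counted from 1.

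A gene was marked when a peak overlapped the 5 kb on either side of its TSS by at least 1 bp (GENCODE M21, Python 3.11.15, pandas 2.3.3). Shares carry Wilson intervals (SciPy 1.17.1). No test was run, since each group has 1 list. Window and overlap calls were tested on simulated data. Sequences came from the RefSeq copy of GRCm38, in whose chromosome lengths all peaks lay. Members and lists were chosen with earlier results of these data known. All 38 members are accounted for by state. Peaks are given for members without H3K27me3 in E11.5 EGFP- cells, with H3K27me3 in 3 lists, without any peak, with H3K27ac and no H3K27me3 in EGFP+ cells, with the most bases under H3K27me3, and for pairs with overlapping windows. Other windows, starts, peak widths and member sets were also computed.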

Additional observations from a re-analysis of the deposited data

How the results depend on the processing

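No paired analysis was possible because each group has 1 peak list, and for the same reason no replicate could be left out. A stricter threshold by score was not run, since all scores were 0. Of 104 alternative values, 73 stayed within the 95% interval of the main value and 31 moved beyond it, and 90 left the members on the same side of all genes. Counting any transcript start, requiring the peak centre in the window, or leaving out the 11 members that also act in the nervous system moved none of the shares beyond the interval. Requiring the member's TSS to be the nearest moved a single share, that with both marks in E11.5 EGFP+ cells, to 0%.

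A window of 1 kb gave 31.6%, 68.4% and 2.63% of members for H3K27ac in EGFP+ cells by stage (all genes 40.6%, 44.5% and 46.0%). For H3K27me3 it gave 52.6% in EGFP- cells (all genes 36.2%) and 21.1%, then 0%, in the later EGFP+ lists (all genes 5.34% and 0.451%). Both marks were at 0% in E11.5 EGFP+ cells (all genes 1.22%) and at 18.4% at E13.5 (all genes 4.36%). Peaks of at least 300 bp gave H3K27ac at 15.8% in E11.5 EGFP+ cells (all genes 28.9%) and 36.8% at E13.5 (all genes 23.0%). They gave H3K27me3 at 28.9% in EGFP- cells (all genes 16.8%). In EGFP+ cells by stage it was at 0%, 10.5% and 0% (all genes 0.242%, 0.62% and 0.128%). Both marks were at 0% in E11.5 EGFP+ cells (all genes 0.15%) and 7.89% at E13.5 (all genes 0.419%). Of members with H3K27me3 in EGFP- cells, 27.3% (3 of 11) had H3K27ac in E11.5 EGFP+ cells, against 58.4% of all such genes. Cutting each list to its widest peaks, as many as the shortest list of the mark holds (1386 or 1438), left 0% for H3K27ac at all 3 EGFP+ stages (all genes 6.25%, 1.39% and 6.87%). H3K27me3 was then at 2.63% in EGFP- cells (all genes 2.98%), 0% at E11.5 (1.34%) and 23.7% at E13.5 (2.68%) in EGFP+ cells, both marks were at 0% at E11.5 (0.123%) and E13.5 (0.178%), and the conditional share was 0% (0 of 1). Under this setting the members thus fell below all genes for H3K27ac at E13.5, H3K27me3 in EGFP- cells and both marks at E13.5. With H3K27ac lists cut to the E15.5 length and H3K27me3 lists to the E13.5 length, chosen after the data were seen, H3K27ac at E13.5 was at 44.7%, H3K27me3 in EGFP- cells at 23.7% (all genes 14.1%), both marks at E13.5 at 26.3% (all genes 5.59%), and the conditional share 77.8% (7 of 9, all genes 78.9%). The share with H3K27ac in E11.5 EGFP+ cells fell below that of all genes with the 1 kb window, any transcript start, peaks of at least 300 bp and lists cut to the shortest. The other changes of side concerned H3K27me3 or both marks in E11.5 EGFP+ cells and H3K27me3 at E15.5, shares of 2 members or fewer. Without counts, an absent peak cannot be told apart from too little depth.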
